A study of Mus musculus with 19 samples.

Results

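The transcripts described here are 1 transcript each of *Postn*, *Thbs4* and *Lox*, 3 genes of the extracellular matrix, read in left ventricles of mice with and without a cardiac JP2NT transgene. They were named by their identifiers, ENSMUST00000073012.12 (*Postn*), ENSMUST00000022213.7 (*Thbs4*) and ENSMUST00000025409.7 (*Lox*), and are 3 of 96626 transcripts listed in each table. They were selected on their measured estimated counts and TPM values in these libraries, with the values of all 4 groups known. Their levels and fold changes are therefore a description, no p-value is given for them, and nothing is supported by their direction.

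The 12 RNA-seq libraries of the series fell into 4 groups of 3, and all mice were 12 weeks old at harvest. JP2NT-OE mice carried a transgene for JP2NT, the N-terminal piece of junctophilin-2 with an HA tag. It was driven by the α-MHC promoter, a promoter of heart muscle cells. Controls were littermates that lacked it. Banded hearts were taken 3 weeks after transverse aortic banding (TAB), an operation done in males at 9 weeks of age, in which the aorta is constricted and the left ventricle must pump against a higher pressure. Baseline hearts came from littermates without surgery, and there was no sham group, so that load and surgery cannot be told apart. The labels do not say that each replicate was a separate mouse, and the spread between libraries may be technical in part.

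The matrix between heart muscle cells is made mainly by fibroblasts, which produce more of it when the ventricle is overloaded. Periostin, the product of *Postn*, is a secreted matricellular protein that binds collagen and is widely used as a marker of activated fibroblasts. Thrombospondin-4, from *Thbs4*, is a matricellular glycoprotein that also acts inside the cell, in the endoplasmic reticulum. Lysyl oxidase, from *Lox*, is the secreted copper enzyme that cross-links collagen and elastin fibres. In whole ventricle RNA, fewer cells of a type and less RNA per cell cannot be told apart.

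Libraries held 37662212 to 53097801 estimated counts. On the first principal component of all tested transcripts, baseline libraries lay between -80.0 and -54.5, banded control libraries between 86.6 and 94.9, and banded JP2NT-OE libraries at 44.3, 51.7 and 15.3 for replicates 1, 2 and 3. Replicate 3 of the banded JP2NT-OE group thus stood apart from replicates 1 and 2, towards the baseline libraries. For *Postn*, *Thbs4* and *Lox*, the means and edgeR fold changes that use it are given with and without it. Values of other transcripts and of other methods are given with it only.

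*Postn* lies on mouse chromosome 3, from 54359267 to 54391041 in GRCm38, and *Thbs4* on chromosome 13, from 92751586 to 92794818. The windows from 250 bases before to 50 bases after annotated transcript starts were sought for the 3 genes, from RefSeq on GRCm38.p6. They were available for *Postn* and *Thbs4* only, and no window of *Lox* was read. RefSeq gave 2 windows for *Postn* and 1 for *Thbs4*. The tables do not tie the measured *Postn* transcript to either start. The 2 windows shown are those in which a searched motif was found, and capitals mark the match.
Postn, chr3:54360857-54361156, plus strand: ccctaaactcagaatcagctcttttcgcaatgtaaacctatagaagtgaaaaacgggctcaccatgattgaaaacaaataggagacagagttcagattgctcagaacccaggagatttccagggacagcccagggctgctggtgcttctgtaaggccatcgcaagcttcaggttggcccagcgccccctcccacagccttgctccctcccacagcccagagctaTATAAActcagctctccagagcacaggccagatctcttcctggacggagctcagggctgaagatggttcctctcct
Thbs4, chr13:92794769-92795068, minus strand: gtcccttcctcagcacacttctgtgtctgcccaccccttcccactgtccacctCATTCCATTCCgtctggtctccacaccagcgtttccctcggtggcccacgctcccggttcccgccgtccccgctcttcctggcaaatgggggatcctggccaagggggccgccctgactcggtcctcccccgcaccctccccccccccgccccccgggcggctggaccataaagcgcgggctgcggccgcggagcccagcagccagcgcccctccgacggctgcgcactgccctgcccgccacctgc

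The *Postn* window held TATAAA, the core of the TATA box, on the strand of the gene, with its first base 26 bases before the start. Among all 32851 windows of this length, 13.6% held TATAAA on either strand and 8.32% on the strand of the gene. The *Thbs4* window held GGAATG, the core of the motif of TEAD factors, 2 times on the opposite strand, the last base of one match being the first of the other, and 14.7% of all windows held it on either strand. TGANTCA, the motif of AP-1, which reads the same on both strands (7.81% of all windows), and the MEF2 motif (3.19%) were searched on both strands and had no match in the 3 windows. The windows also differed in base composition. G and C made up 53% of the *Postn* window shown, 40% of the other *Postn* window and 72% of the *Thbs4* window. These matches describe the letters in the windows and show no binding.

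All 3 transcripts were at low levels in unoperated hearts. Levels are given as TPM, an abundance corrected for transcript length and scaled to the same total in each library, which can be compared between transcripts. In replicates 1, 2 and 3 of control baseline hearts, *Postn* stood at 2.95, 0.680 and 1.60 TPM. In JP2NT-OE baseline hearts it stood at 1.87, 1.27 and 1.16 TPM. The control values spanned a 4.34-fold range that enclosed all of the JP2NT-OE values. *Thbs4* was even between libraries, at 1.56, 1.37 and 1.17 TPM in control and 1.52, 1.51 and 1.41 TPM in JP2NT-OE baseline hearts. *Lox* stood at 0.404, 0.524 and 0.610 TPM in control and 0.544, 0.796 and 0.704 TPM in JP2NT-OE baseline hearts. The 2 genotypes overlapped at baseline for each of the 3 transcripts, where 9.03% of all tested transcripts had no overlap in TPM in either direction. Behind the baseline values of *Lox* were 55.2 to 106 estimated counts per library, against 85.6 to 355 for *Postn* and 121 to 191 for *Thbs4*.

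Banded control hearts held far more of all 3 transcripts. *Postn* stood at 83.6, 80.6 and 58.1 TPM in replicates 1, 2 and 3 after TAB, a mean of 74.1 ± 13.9 TPM (SD, n = 3) against 1.74 ± 1.14 TPM at baseline. *Thbs4* stood at 57.8, 41.9 and 35.3 TPM, a mean of 45.0 ± 11.6 against 1.37 ± 0.192 TPM. *Lox* stood at 3.97, 6.54 and 3.00 TPM, a mean of 4.50 ± 1.83 against 0.513 ± 0.103 TPM. Banded and baseline control libraries did not overlap for any of the 3, and the banded ones were likewise wholly above baseline in TPM for 32.2% of all tested transcripts. Replicate 3 was the lowest banded control library for each of them, while replicate 1 was the highest for *Postn* and *Thbs4* and replicate 2 for *Lox*. In order of level, *Postn* stood above *Thbs4* and *Thbs4* above *Lox* in each banded control library. At baseline *Lox* was the lowest in each of the 6 libraries, but *Postn* and *Thbs4* changed places between libraries, with *Postn* at 0.496 to 1.90 times the TPM of *Thbs4*.

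**Figure D1:**
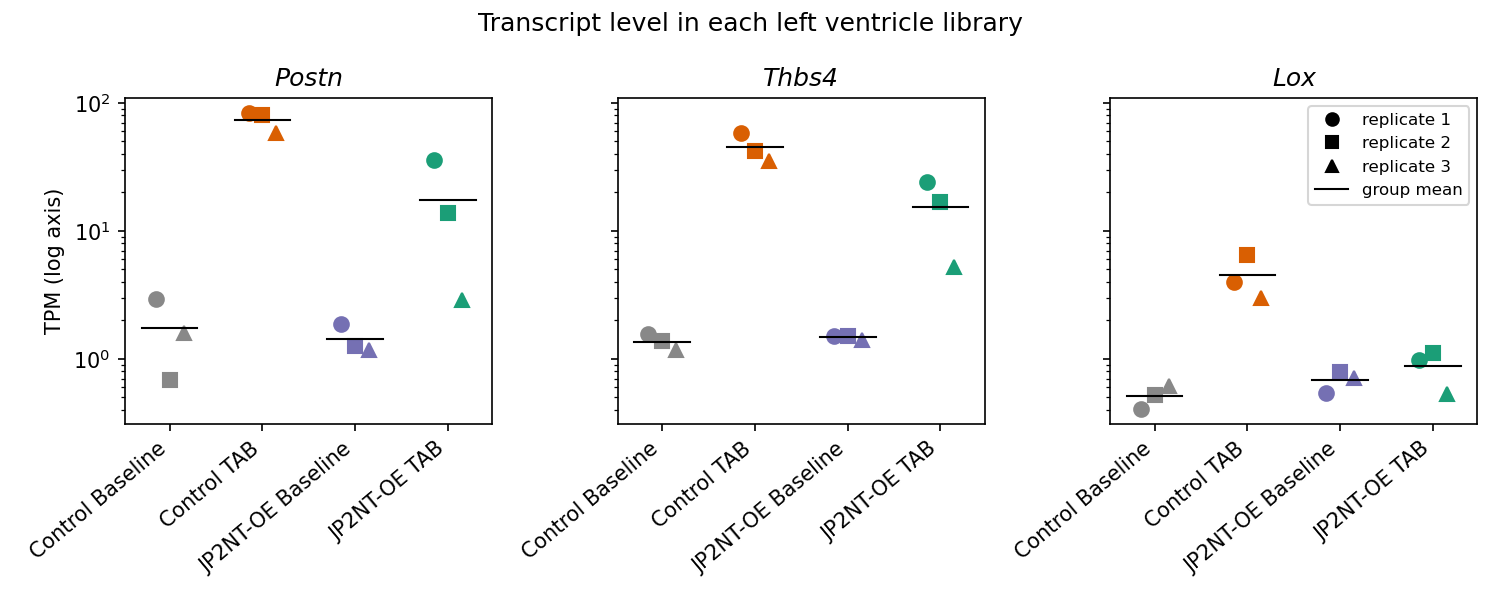
Level of each transcript in TPM (log axis) in the 12 left ventricle libraries, by group, with symbols for replicates and a line at each group mean. Banded control libraries sit above all baseline libraries for the 3 genes, and banded JP2NT-OE libraries run from 2.91 to 35.6 TPM for *Postn* but only from 0.530 to 1.12 TPM for *Lox*.

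Banded JP2NT-OE hearts had intermediate and very uneven levels of *Postn* and *Thbs4*. *Postn* stood at 35.6, 13.9 and 2.91 TPM in replicates 1, 2 and 3, a mean of 17.5 ± 16.6 TPM (SD, n = 3) against 1.43 ± 0.378 TPM at baseline. *Thbs4* stood at 24.3, 16.8 and 5.20 TPM, a mean of 15.4 ± 9.61 against 1.48 ± 0.0579 TPM. For both, each banded library was above each baseline library of the genotype, as it was for 17.6% of all tested transcripts, and below each banded control library, as it was for 16.4%. Without replicate 3 the means were 24.7 ± 15.4 TPM for *Postn* and 20.5 ± 5.31 TPM for *Thbs4* (SD, n = 2). *Postn* in replicate 3 was nevertheless below the highest control baseline library, at 2.95 TPM.

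*Lox*, the cross-linking enzyme, differed little from baseline in banded JP2NT-OE hearts. It stood at 0.979, 1.12 and 0.530 TPM after TAB, a mean of 0.875 ± 0.307 TPM (SD, n = 3) against 0.681 ± 0.128 TPM at baseline. Replicate 3 was below all 3 JP2NT-OE baseline libraries and the other two were above them, so that the groups overlapped. The highest of these banded libraries, at 1.12 TPM, was below the lowest banded control library, at 3.00 TPM. Without replicate 3 the mean was 1.05 ± 0.0979 TPM (SD, n = 2).

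Expressed on the linear TPM scale, the increase of *Postn* over baseline was 72.4 TPM in control and 16.0 TPM in JP2NT-OE hearts, which is 22.1% of the control increase. For *Thbs4* it was 43.6 and 13.9 TPM, or 31.9%. For *Lox* it was 3.99 and 0.194 TPM, or 4.87%. Without replicate 3 of the banded JP2NT-OE group these shares were 32.2%, 43.7% and 9.19%, and over all fits that left out 1 library they ran from 9.61% to 32.2% for *Postn*, from 21.8% to 43.7% for *Thbs4* and from 1.83% to 9.19% for *Lox*.

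Log2 fold changes and their standard errors were taken from 1 edgeR quasi-likelihood fit of the 43256 transcripts that passed the filter on low counts, with libraries scaled by TMM factors. All 3 transcripts passed the filter. The fit held 1 estimate of the spread of each transcript over all 4 groups. Each standard error therefore also carries the spread of groups outside its comparison. For banding in control hearts the log2 fold change was 5.10 (SE 0.82) for *Postn*, 4.72 (SE 0.47) for *Thbs4* and 2.83 (SE 0.34) for *Lox*, which are folds of 34.4, 26.3 and 7.13. The fold of *Postn* was 53.3 without control baseline replicate 1, its highest baseline library, and 26.6 without control baseline replicate 2, its lowest. With 1 library left out, the folds of *Thbs4* ran from 22.9 to 29.1 and those of *Lox* from 5.45 to 8.31. The median over all tested transcripts was 0.007. At a Benjamini-Hochberg adjusted p under 0.05, 3 of 3 were called higher, beside 4.16% of all tested transcripts called higher and 8.6% called in either direction. With library totals alone in place of TMM factors, 3895 transcripts were called higher and 919 lower, compared with 1798 and 1924, the median stood at 0.19, and the 3 were called higher there too. Among transcripts called higher, 51 had a larger log2 fold change than *Postn*, 57 than *Thbs4* and 127 than *Lox*.

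For banding in JP2NT-OE hearts the log2 fold change was 3.41 (SE 0.77) for *Postn*, 3.19 (SE 0.45) for *Thbs4* and 0.20 (SE 0.32) for *Lox*, beside a median of 0.005 over all tested transcripts. *Thbs4* was the 1 of 3 called higher, where 0.106% of all tested transcripts were called higher and 0.238% in either direction. That call of *Thbs4* was lost in 11 of 12 fits that left out 1 library. Those fits called only 3 to 26 of all transcripts, against 103 with 12 libraries, and the log2 fold change of *Thbs4* in them lay between 2.71 and 3.25. Without replicate 1 of the banded JP2NT-OE group, 1 of these fits, the log2 fold changes were 2.36 for *Postn*, 2.71 for *Thbs4* and 0.12 for *Lox*. The call was kept without replicate 3 of that group. There *Postn* was called as well, the log2 fold changes were 3.90 for *Postn*, 3.59 for *Thbs4* and 0.43 for *Lox*, and 407 transcripts were called.

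**Figure D2:**
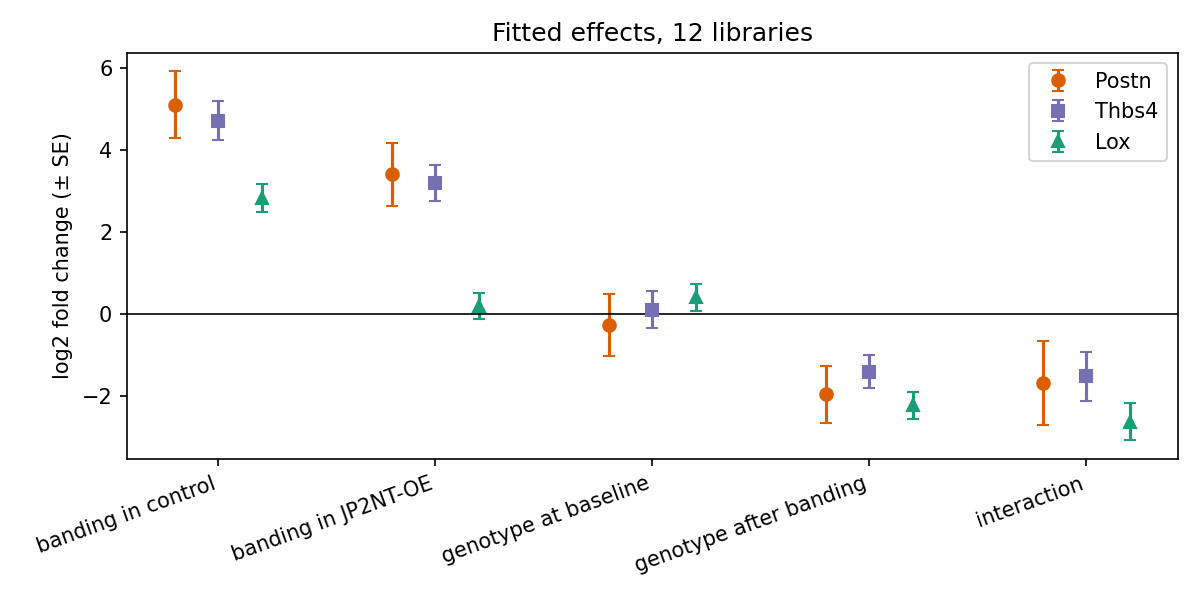
Fitted log2 fold change of each transcript in the 5 contrasts of the 12-library fit, with bars for 1 standard error. *Lox* stands at 2.83 for banding in control and at 0.20 for banding in JP2NT-OE hearts, and the 3 transcripts lie within 0.40 of 0 for genotype at baseline.

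At baseline the log2 fold change of JP2NT-OE over control was -0.27 (SE 0.76) for *Postn*, 0.10 (SE 0.45) for *Thbs4* and 0.40 (SE 0.33) for *Lox*. None of the 3 was called, as was true of all but 3 tested transcripts (0.00694% called, 1897 with an unadjusted p under 0.05), and DESeq2 called 0 of the 3 and 127 of all transcripts. For *Postn* the sign at baseline turned without control baseline replicate 1, to 0.36, and was -0.64 without control baseline replicate 2, which are the highest and lowest of its control libraries. A fit of only the baseline groups gave log2 fold changes of -0.27, 0.10 and 0.40 for *Postn*, *Thbs4* and *Lox*. Its standard errors were 0.51, 0.17 and 0.23, without the spread of the banded libraries. With standard errors of either size, the baseline comparison does not show equal levels.

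After banding the log2 fold change of JP2NT-OE over control was -1.97 (SE 0.70) for *Postn*, -1.42 (SE 0.40) for *Thbs4* and -2.24 (SE 0.33) for *Lox*, beside a median of -0.003 over all tested transcripts. All 3 were lower, without overlap between the banded groups, as 16.4% of all tested transcripts were in TPM. TPM carries no TMM scaling. With limma on log2(TPM + 0.1) the median over all tested transcripts was -0.129 here. It was 0.281 for banding in control and 0.15 for banding in JP2NT-OE hearts. The part of this general shift in the shares without overlap in TPM was not tested. *Lox* was the 1 of 3 called lower, where 0.132% of all tested transcripts were called lower and 0.451% in either direction. The *Lox* call was lost in 7 of 12 fits that left out 1 library: those without control TAB replicate 1 or 2, without replicate 2 or 3 of the JP2NT-OE baseline group, and without any 1 of the banded JP2NT-OE libraries. These 7 fits called 16 to 60 of all transcripts, against 195 with 12 libraries, and the 5 that kept the call called 81 to 112. Its log2 fold change ran from -2.46 to -1.85 over all 12, with -2.00 without replicate 3 of the banded JP2NT-OE group. That of *Postn* ran from -3.02 without replicate 1 of the banded JP2NT-OE group to -1.47 without replicate 3 of it, and that of *Thbs4* from -1.90 to -1.02 over the same pair of libraries. The banded control libraries enter both this comparison and that of banding in control hearts, so the values of the 2 comparisons are not independent.

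**Figure D3:**
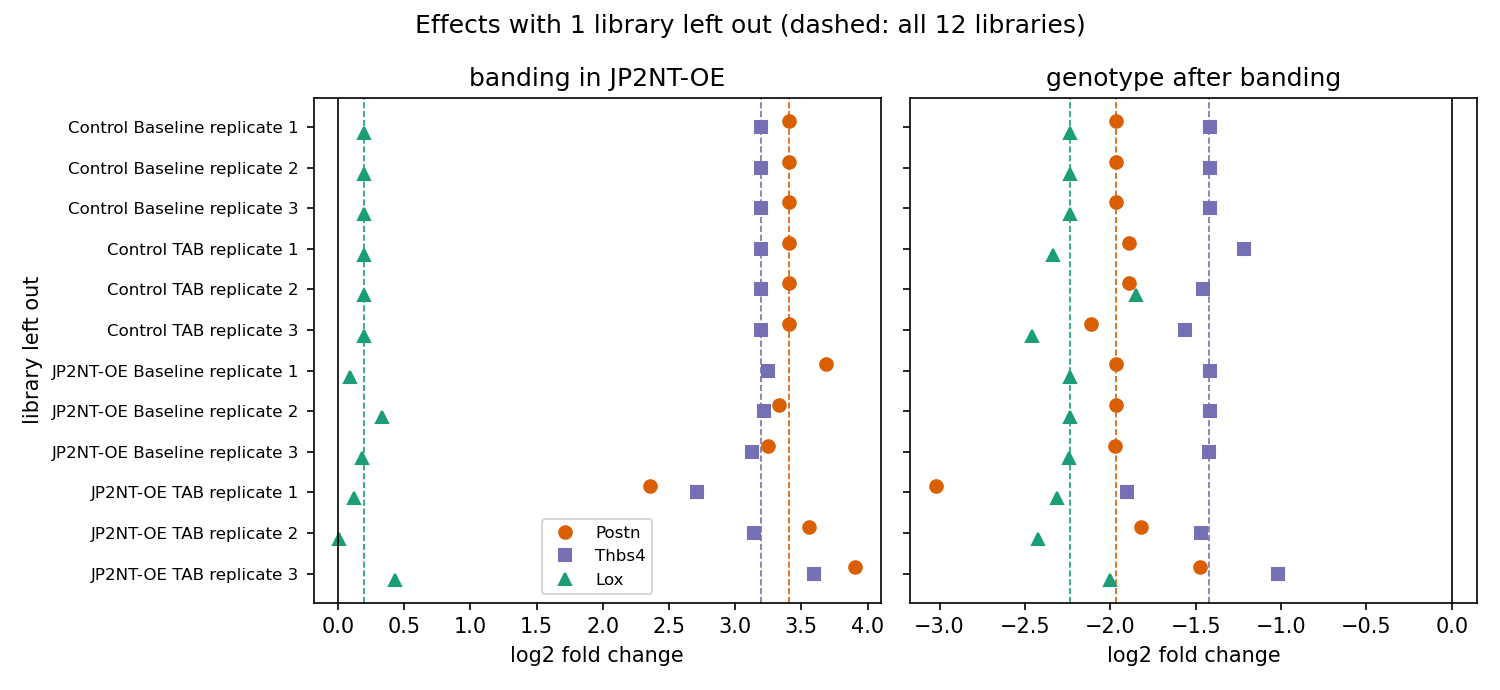
Log2 fold change for banding in JP2NT-OE hearts (left) and for genotype after banding (right) in fits that left out 1 library each, with a dashed line at the value from all 12. *Postn* moves most with the banded JP2NT-OE libraries, from -3.02 to -1.47 for genotype after banding, and *Lox* stays between 0.01 and 0.43 for banding in JP2NT-OE hearts.

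The difference between the banding effects of the genotypes was -1.70 on the log2 scale for *Postn* (SE 1.02), -1.52 for *Thbs4* (SE 0.60) and -2.64 for *Lox* (SE 0.46). Without replicate 3 of the banded JP2NT-OE group these were -1.20, -1.12 and -2.40, and without replicate 1 of it -2.75, -2.00 and -2.71. None of the 3 was called in this interaction, in which 1 of all tested transcripts was called (0.00231%) and 3741 had an unadjusted p under 0.05. DESeq2 called 677 transcripts in the interaction, *Lox* among them.

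Library by library, the 3 transcripts shared the low position of replicate 3 in the banded JP2NT-OE group. Against the mean log2 CPM (counts relative to the TMM-scaled library total) of the baseline libraries of the genotype, *Postn* was higher by 4.46, 3.09 and 0.96 in replicates 1, 2 and 3. *Thbs4* was higher by 3.83, 3.29 and 1.72. *Lox* differed by 0.34, 0.52 and -0.41. Replicate 3 was the lowest for all 3 transcripts, with *Postn* and *Thbs4* still above baseline and *Lox* below it. The same library was the lowest for other transcripts as well. The 1795 other transcripts called higher in banded controls had a median shift of 0.36, 0.34 and 0.20 in the 3 banded JP2NT-OE libraries, against 0.76, 0.83 and 0.80 in the banded control libraries in which they were selected. Its total of 45443602 estimated counts lay within the range of the other libraries. The 1924 transcripts called lower in banded controls had median shifts of -0.26, -0.25 and -0.16 in the 3 banded JP2NT-OE libraries. Over all tested transcripts the median shift was 0.027, 0.023 and 0.019. TMM scaling draws this median to about the same value in all libraries, so its likeness between them carries no information on replicate 3. The TMM factor of replicate 3 was 0.977, against 1.04 and 1.05 in replicates 1 and 2. In baseline libraries it ran from 0.920 to 0.991. For both lists replicate 3 was nearer to baseline than replicates 1 and 2. The part of this smaller difference from baseline in the results for the 3 transcripts was not tested.

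**Figure D4:**
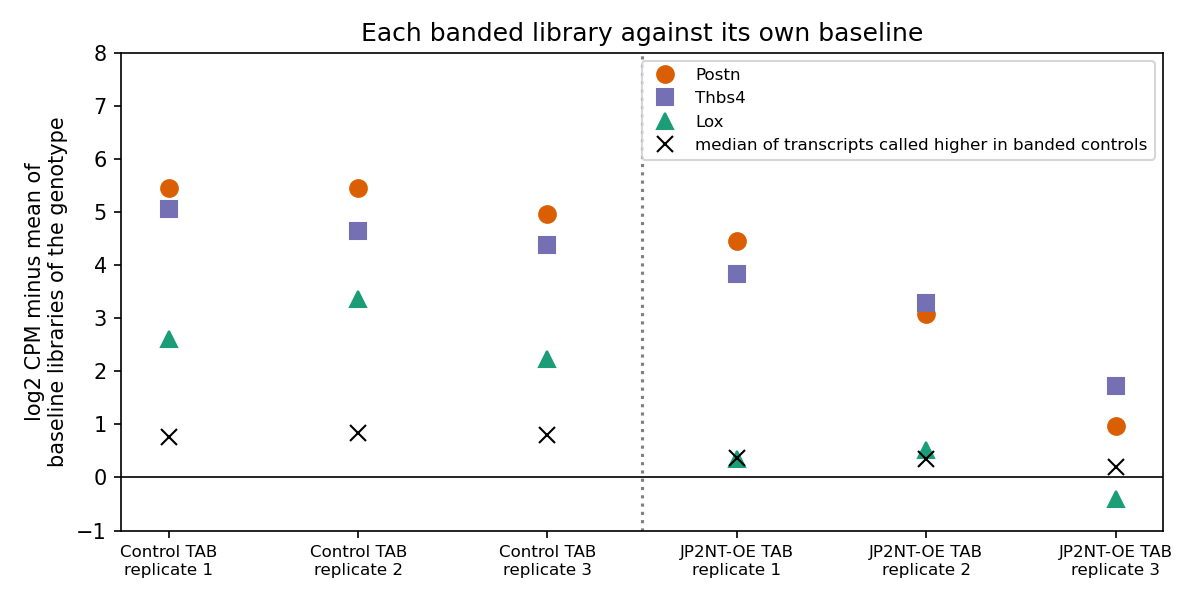
Log2 CPM of the 3 transcripts in each banded library minus the mean of the baseline libraries of the same genotype, with a cross at the median of the 1795 other transcripts called higher in banded controls. *Postn* lies between 4.97 and 5.46 in the banded control libraries and between 0.96 and 4.46 in the banded JP2NT-OE libraries, where replicate 3 is the lowest for each transcript.

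The spread among the banded JP2NT-OE libraries was wide for these transcripts. The SD of log2 CPM was 1.76 for *Postn*, 1.10 for *Thbs4* and 0.49 for *Lox* (n = 3), beside a median of 0.146 over 18617 transcripts with a mean log2 CPM of at least 1. It was larger than that of 99.6%, 98.9% and 92.6% of those transcripts. Among banded control libraries the SD was 0.28, 0.34 and 0.58, larger than that of 76.0%, 82.5% and 94.4% of transcripts. *Postn* was also uneven among control baseline libraries, with an SD of 1.01 (98.5% of transcripts lower), where *Thbs4* had 0.25 and *Lox* 0.28.

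The balance between the 3 transcripts differed between libraries too. *Thbs4* stood at 1.90 to 3.85 times the TPM of *Lox* in the 6 baseline libraries, at 6.40 to 14.5 times in banded control and at 9.81 to 24.8 times in banded JP2NT-OE libraries. The ratio in banded libraries of either genotype was above that in all baseline libraries. *Postn* stood at 1.45, 1.93 and 1.65 times the TPM of *Thbs4* in banded control replicates 1, 2 and 3. In banded JP2NT-OE hearts it stood at 1.47, 0.828 and 0.559 times, so that *Thbs4* was the higher of both in replicates 2 and 3. These ratios are between single transcripts, and the totals of the genes were not read and may stand in another order.

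Across the 12 libraries *Postn* and *Thbs4* followed each other more closely than either followed *Lox*. Pearson's r of log2 CPM was 0.971 between *Postn* and *Thbs4*, 0.844 between *Postn* and *Lox* and 0.830 between *Thbs4* and *Lox*. These are descriptions without a test, since the libraries fall into banded and baseline ones and all transcripts share their depth and scaling. Ranked by likeness to *Postn* among 18616 transcripts, *Thbs4* came at place 6 and *Lox* at place 642. An r over 0.9 was reached with *Postn* by 256 transcripts, with *Thbs4* by 444 and with *Lox* by 131. Of these, 249, 436 and 129 were called higher in banded controls. The transcripts were chosen for likeness over the same libraries that gave the calls, so these counts are largely set by that choice. The counts are no separate evidence, and the share called higher among all 18616 transcripts was not counted.

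The transcript most like *Postn* was ENSMUST00000107985.9 (r = 0.980 over 12 libraries). It stood at 1.69 ± 0.665 TPM in control baseline, 71.5 ± 14.6 in control TAB, 1.77 ± 0.494 in JP2NT-OE baseline and 17.9 ± 15.7 TPM in JP2NT-OE TAB libraries (SD, n = 3), and was thus close to *Postn* in level as well as in pattern. The files pair no other identifier with a gene, so whether it comes from the same gene was not tested. If 2 transcripts share sequence, the authors' software divides their reads, and the estimated count of *Postn* was not whole in any of the 12 libraries, nor was that of *Lox*, whereas that of *Thbs4* was whole in 4. The transcript most like *Thbs4* was ENSMUST00000145036.2 (r = 0.988), at 0.241 ± 0.0221, 6.78 ± 1.41, 0.310 ± 0.0562 and 1.90 ± 1.27 TPM in the same order of groups. The transcript most like *Lox* (r = 0.983) stood at 12.0 ± 1.25, 40.5 ± 2.98, 13.9 ± 2.34 and 16.7 ± 3.47 TPM. Over the 3 nearest transcripts of each, r ran from 0.974 to 0.980 for *Postn*, from 0.984 to 0.988 for *Thbs4* and from 0.971 to 0.983 for *Lox*. As for *Lox*, the level of its nearest transcript in banded JP2NT-OE hearts was much nearer to baseline than to banded controls. That transcript was chosen for likeness to *Lox* over these same libraries, so the shared pattern is no separate evidence.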

How the data were processed

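The members and lists were chosen with earlier results of these data known. Left ventricle RNA was sequenced from stranded libraries of polyadenylated RNA, per the labels' protocols. Tools listed in the submitters' processing notes, with no role, include kallisto 0.42.5 and cutadapt 1.8.1, and the build listed is mm10. The authors deposited estimated counts per transcript, which need not be whole because shared reads are divided, and TPM values, which are corrected for length and carry no depth, per the file headers. The transcript annotation is not given in the sources used here, and the 7 chromatin samples were not analysed here.

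Estimated counts were rounded, filtered with filterByExpr by group (43256 of 96626 transcripts kept), scaled with TMM factors and fitted with edgeR 4.0.16 in R 4.3.3, with 1 mean per group over 12 libraries and 8 residual degrees of freedom. A transcript counted as called below an adjusted p of 0.05 (Benjamini-Hochberg). Each standard error is the absolute log2 fold change divided by the root of its F statistic. Log2 CPM used a prior count of 2. The code was tested on simulated counts, with changes in the banded control group only and the same spread in all groups. How many changes were recovered is not given here. Changes were put only in transcripts above a minimum level in control baseline libraries. *Thbs4* and *Lox*, at means of 4.03 and 1.70 CPM there, lay below that level. The other contrasts were not covered by that test.

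Gene symbols of the 3 members came with the rule that named them. Of all transcript identifiers, 0 matched the tables of gene names. Lists of matrix genes and cell type markers, and the transgene's own transcript, were therefore not read, and the tissue was not checked against its markers. The rule for named items took the 3 members and, for each, the 3 transcripts with the highest r over 12 libraries. Identifiers of only 2 of these are printed. Alternatives were DESeq2 1.42.0, limma 3.58.1 on log2(TPM + 1) and log2(TPM + 0.1), library totals, no filter, a replicate block, only the groups compared, and leaving out each library.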

Additional observations from a re-analysis of the deposited data

How the results depend on the processing

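Each fold change that was called kept its direction under all alternatives, and the 3 calls for banding in control held in each of them. With limma on log2(TPM + 1), where the added 1 shrinks folds at low TPM, banding in control stood at 4.25 for Thbs4 and 1.82 for Lox, genotype after banding at -1.52 for Lox and the interaction at -1.67 for Lox. Postn there stood at 2.41 for banding in JP2NT-OE, -2.53 for genotype after banding and -2.43 for the interaction. The last pair were larger falls than the -1.97 and -1.70 of the edgeR fit, the opposite of that shrinking. With log2(TPM + 0.1) they were -2.68 and -2.59. The reason for this difference between methods was not tested. Of the 3 transcripts, DESeq2 called 2 for banding in JP2NT-OE, 2 for genotype after banding and 1 for the interaction, where it called 1672, 1459 and 677 of all transcripts. Fits of only the groups compared called 0 and 0 for the first pair (edgeR, 4 and 0 of all transcripts, with 4610 and 3875 at an unadjusted p under 0.05). With 1 library left out, the number called ran from 0 to 2 for banding in JP2NT-OE and from 0 to 1 for genotype after banding, and the Postn interaction from -2.75 to -1.20. Over all alternatives, other methods included, the number of all transcripts called ran from 2231 to 8387 for banding in control (3722 in the fit reported). It ran from 0 to 1672 for banding in JP2NT-OE (103) and from 0 to 127 for genotype at baseline (3). For genotype after banding it ran from 0 to 1459 (195) and for the interaction from 0 to 677 (1). Leaving out 1 library alone gave 2231 to 3663, 3 to 407, 0 to 8, 16 to 112 and 0 to 8, in the same order.

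Replicate numbers are shared between groups, but the labels tie them to nothing. Deviations of same-numbered libraries from their group means correlated between -0.093 and 0.086, and the same number gave the highest correlation in 13 of 36 combinations. With the replicate block, edgeR called 0 of the 3 for banding in JP2NT-OE, 0 for genotype after banding and 3 for banding in control (0, 15 and 3040 of all transcripts called, and 4817, 4234 and 8999 at an unadjusted p under 0.05). Depth limits Lox most, at 55.2 estimated counts in its lowest library.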
